A study of Mus musculus with 14 samples.

Results

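The heat shock genes described here were 10 mouse genes: Hspa1a, Hspa1b, Hspa8, Hsph1, Hsp90aa1, Dnajb1, Dnaja1, Hspb1, Cryab and Hspe1. They were taken as the Affymetrix probe sets annotated with exactly 1 gene symbol, where that symbol was one of the 10 names. This gave 27 probe sets of the 45101 on the array, and 10 of the 18193 genes that had such a probe set. Expression was measured in whole lungs of CD151KO mice (5 arrays, numbered 1 to 5), CD9KO mice (5 arrays, numbered 1 to 5) and wild type mice (4 arrays, numbered 1, 3, 4 and 5), 1 sample to an array. All mice had the C57BL/6 background and an age of 20 weeks, no treatment is named in the labels, and CD151 and CD9 are tetraspanins, membrane proteins that associate with integrins. The labels do not say how the alleles were made, nor that each sample came from its own animal, so the p-values measure the spread between these samples, which may in part be technical.

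Heat shock proteins are molecular chaperones that bind unfolded or nascent proteins and help them fold. Under heat or other stress that unfolds proteins, heat shock factor 1 (HSF1) is released from chaperones, forms trimers and binds repeats of the short unit GAA and its reverse complement TTC in the promoters of these genes. HSP70 proteins (Hspa1a and Hspa1b, strongly stress-inducible, and Hspa8, made in most cells at rest) work with J-domain proteins (Dnajb1, Dnaja1), which stimulate their ATPase, and with the HSP110 protein encoded by Hsph1, which exchanges their nucleotide. Hsp90aa1 encodes the inducible cytosolic HSP90. Hspb1 (HSP27) and Cryab (alpha B-crystallin) are small heat shock proteins that hold unfolded proteins without ATP, and Cryab is abundant in heart and skeletal muscle. Hspe1 encodes the co-chaperonin of the mitochondrial matrix, so the name cytosolic does not hold for it, and it is HSF1-inducible together with its neighbour Hspd1.

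The promoters are shown first, as a description of sequence, and their part in the array values was not tested. Of the 10 genes, 7 had an upstream sequence in the RefSeq table of build GRCm38.p6, and Hspa8, Hsp90aa1 and Cryab are named only. The 250 bases before the start of the Hspa1a and Hspa1b genes, neighbours on chromosome 17, are given as read on the minus strand at chr17:34972157-34972406 for Hspa1a and chr17:34959239-34959488 for Hspa1b, with capitals marking the match to GAANNTTC.
Hspa1a: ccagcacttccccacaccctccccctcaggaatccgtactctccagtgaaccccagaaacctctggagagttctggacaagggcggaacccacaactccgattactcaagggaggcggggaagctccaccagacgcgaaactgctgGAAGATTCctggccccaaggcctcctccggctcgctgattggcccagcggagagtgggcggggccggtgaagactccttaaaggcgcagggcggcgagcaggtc
Hspa1b: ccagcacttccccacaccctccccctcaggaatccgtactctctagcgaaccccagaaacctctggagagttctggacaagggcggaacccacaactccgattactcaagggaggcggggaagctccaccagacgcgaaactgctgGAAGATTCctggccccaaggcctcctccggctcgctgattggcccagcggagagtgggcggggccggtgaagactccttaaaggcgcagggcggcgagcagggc
These sequences were identical at 247 of 250 bases (98.8%). With positions counted from 1 at the first base shown, the differences written as the base of Hspa1b, the position and the base of Hspa1a were T44C, C47T and G249T. The match lay at -104 to -97 from the gene start in both.

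The motifs searched were GAANNTTC and TTCNNGAA, each of which is its own reverse complement and so was read on both strands, and the longer forms with 3 alternating units GAA and TTC, each spaced by any 2 bases, in which the shorter matches overlap. For the other genes with a match, a stretch of 30 bases around it is given, again with the match in capitals. The stretches lie at chr5:149636351-149636380 on the minus strand for Hsph1, and on the plus strand at chr4:40722333-40722362 for Dnaja1, chr5:135887801-135887830 for Hspb1 and chr1:55088053-55088082 for Hspe1.
Hsph1: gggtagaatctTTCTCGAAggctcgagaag
Dnaja1: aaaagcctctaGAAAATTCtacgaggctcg
Hspb1: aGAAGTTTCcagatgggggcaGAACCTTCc
Hspe1: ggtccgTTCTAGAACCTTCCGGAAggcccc
Hspb1 held 2 separate matches. Dnaja1 held its match before only 1 of its annotated starts, in a window that overlaps the annotated gene Gm6297. The capitals of Hspe1 hold both longer forms, which overlap, and its window lies within the annotated neighbour Hspd1. The windows of Dnajb1 held none of these letters. A GAANNTTC or TTCNNGAA match was present for 6 of the 7 genes (85.7%), against 14.5% of 27025 genes with an upstream sequence of the same length, and a longer form for 1 of 7 (14.3%), against 0.514% of genes. A gene counted here if any of its annotated starts had the match. Counted by start, GAANNTTC or TTCNNGAA stood before 7 of 11 starts (63.6%), against 12.8% of 32851. A longer form stood before 1 of 11 (9.09%), against 0.466%. A match describes the letters only.

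**Figure D1:**
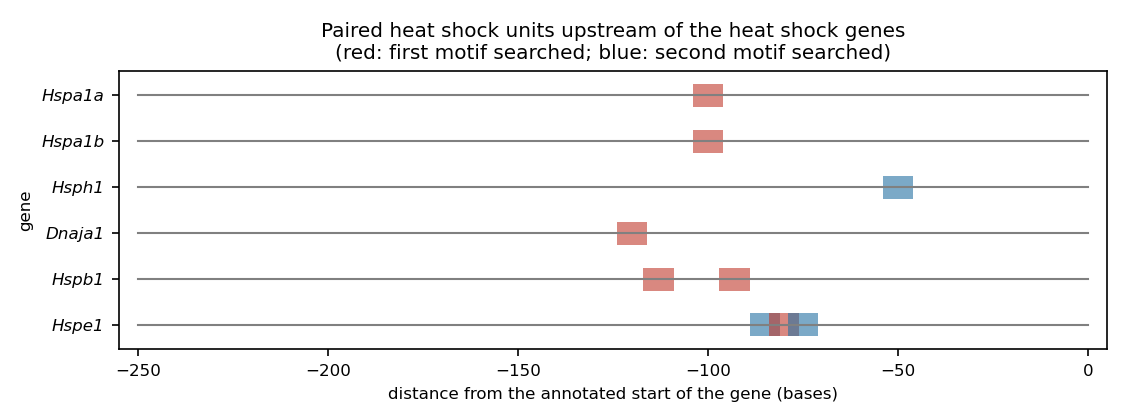
Positions of GAANNTTC matches (red) and TTCNNGAA matches (blue) in the 250 bases before 1 annotated start of each of the 6 genes with a match, with the distance from the start in bases on the horizontal axis. The match farthest from a start begins at -124, in Dnaja1, and the 3 matches of Hspe1 overlap.

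Values are the deposited linear fluorescence signals, in arbitrary units, which ran from 4.79 to 29667 over all probe sets and had medians of 84.1 to 86.2 on the 14 arrays. The brightest probe set of a gene, by its mean over the arrays, stands for the gene, and 12985 genes above a signal of 53.4, the heat shock genes all among them, entered the limma fit on log2(signal + 16), whose differences are those of the genotype named first minus the other. The targeted genes followed their labels: Cd151 had 1057.8 ± 17.7 in CD151KO lungs, against 5329.6 ± 372 in wild type lungs (SD, n = 5 and 4), and Cd9 had 667 ± 52.3 in CD9KO lungs, against 8096 ± 69.4 in wild type lungs (SD, n = 5 and 4). The lung markers Sftpc, Ager and Scgb1a1 had group mean signals between 22074 and 29193. In a principal component analysis, the first component (37.5% of the variance) placed CD151KO array 1 at -17.2 and wild type array 1 at -18.5, the other 7 arrays of these genotypes between -8.01 and 2.47, and the 5 CD9KO arrays between 7.23 and 13.4. Within CD151KO and within wild type, these values rose with each higher array number, so leaving out arrays 1 does not remove this order. CD151KO array 1 and wild type array 1 were also the low ones for most heat shock genes, so several differences are given with and without them.

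No heat shock gene passed the limma test at an adjusted p of 0.05 in any of the 3 comparisons of the groups, where 0.778% of all genes passed for CD151KO against wild type, 5.51% for CD9KO against wild type and 10.1% for CD151KO against CD9KO. They varied widely between arrays of 1 genotype. The residual SD within groups, on the log2 scale, was 0.87 for Hspa1a, 0.81 for Hspa1b and 0.64 for Hsph1, against a median of 0.0882 over all 12985 genes. Hspa1a was at the 100th percentile of that spread, Hspa1b at 99.9 and Hsph1 at 99.8. Of the 10 genes, 9 lay at or above the 94th percentile, and Cryab, at 0.0789, lay at percentile 40.1.

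**Figure D2:**
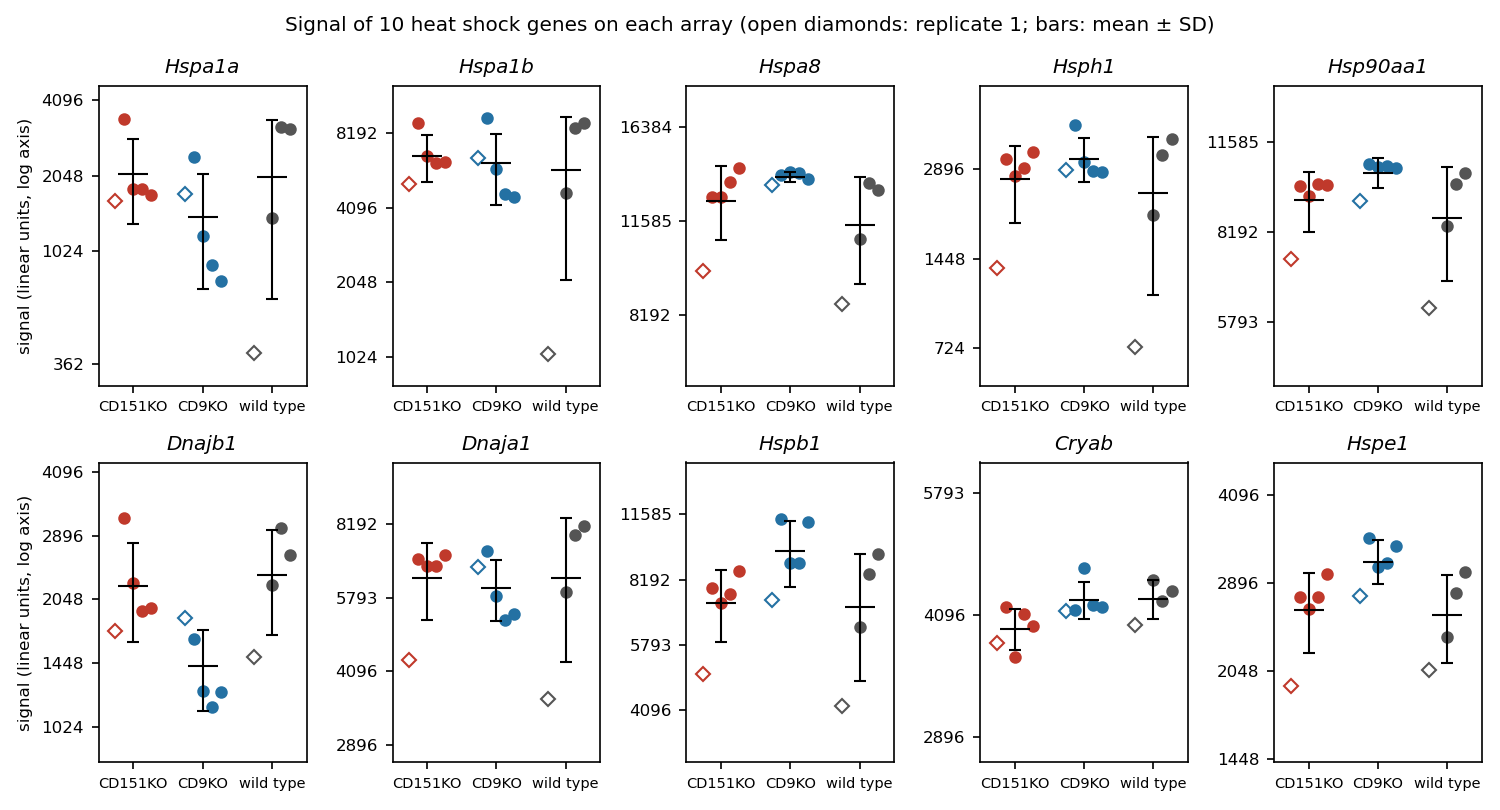
Signal of the brightest probe set of each heat shock gene (linear units on a log axis) in CD151KO, CD9KO and wild type lungs from left to right, with 1 point per array, an open diamond for replicate 1 and bars for the mean ± SD. Hspa1a, Hspa1b and Hsph1 spread widest within groups, wild type array 1 is lowest for 7 of the 10 genes, and the groups overlap for every gene.

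Among the HSP70 genes, Hspa1a gave signals of 1629, 3454, 1814, 1816 and 1719.8 in CD151KO lungs, 1731, 2421, 1178, 899 and 781 in CD9KO lungs, and 401, 1385, 3192 and 3141 in wild type lungs. The lowest value was that of wild type array 1 and the highest that of CD151KO array 2, a ratio of 8.62, and the 3 groups overlapped. Its means were 2087 ± 768 in CD151KO lungs, 1402 ± 678 in CD9KO lungs and 2029.7 ± 1373 in wild type lungs (SD, n = 5, 5 and 4). The log2 difference of CD9KO from wild type was -0.26 (SE 0.50, 95% interval -1.33 to 0.81, adjusted p = 0.772), an interval that holds differences of either sign, and -0.90 without wild type array 1.

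Hspa1b, which encodes an almost identical protein, gave 5099.8, 8960.0, 6612, 6217 and 6281 in CD151KO lungs, 6479, 9372, 5836, 4648 and 4523 in CD9KO lungs, and 1059.8, 4679.9, 8539 and 8949.8 in wild type lungs. Wild type array 1 stood below all other arrays, and the ranges of the other arrays overlapped between the genotypes. The log2 difference was 0.56 for CD151KO against wild type (SE 0.47, adjusted p = 0.713) and 0.43 for CD9KO against wild type (SE 0.47, adjusted p = 0.586). Without wild type array 1 these differences turned to -0.12 and -0.25, and without arrays 1 of both CD151KO and wild type to -0.03 and -0.25. Because the transcripts of Hspa1a and Hspa1b are nearly identical, their probe sets may each take up RNA of both, and the split between the 2 genes is uncertain.

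The ratio of the Hspa1a to the Hspa1b probe set within an array was 0.274 to 0.386 in CD151KO lungs, 0.173 to 0.267 in CD9KO lungs and 0.296 to 0.378 in wild type lungs. Each CD9KO array lay below every array of the other genotypes. The pair was singled out after its values were seen, so the ratio is a description without a test, and it shows unequal change of the 2 probe sets, not which of them changed.

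Hspa8, the HSP70 made at rest, varied far less. Its arrays read 9646, 12632, 12642, 13379 and 14090.4 in CD151KO lungs, 13219.9, 13706, 13849, 13837 and 13492 in CD9KO lungs, and 8521, 10842, 13310.0 and 12973 in wild type lungs. The CD9KO arrays lay close together, with an SD of 266, and the low values were those of arrays 1 in CD151KO and wild type. CD9KO lungs differed from wild type lungs by 0.28 log2 (SE 0.12, adjusted p = 0.154), and by 0.14 without wild type array 1.

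A further Hspa8 probe set, 1431182_at, did not follow the other 3. It gave 623, 662, 244, 245 and 220.4 in CD151KO lungs, 146, 165, 229.7, 162 and 150.3 in CD9KO lungs, and 409, 299, 491 and 296 in wild type lungs. Its correlation with the representing probe set over the 14 arrays, with group means subtracted, was -0.387. All CD9KO values lay below all wild type values, and the CD151KO lungs overlapped both. In a fit of all 34945 probe sets with 1 symbol, without the level filter, it was the single heat shock probe set of 27 to pass, with a log2 difference of 1.01 for CD151KO against CD9KO (SE 0.27, adjusted p = 0.0468), where 4.1% of all probe sets passed. Against wild type, CD9KO lungs differed by -1.05 (SE 0.29, adjusted p = 0.0536), with 0 of 27 passing against 3.55% of all, and for CD151KO against wild type 0 of 27 passed, against 0.358% of all. Among the 22951 probe sets above the level filter, 24 of them of heat shock genes, it passed in both comparisons with CD9KO, with an adjusted p of 0.0382 for CD151KO against CD9KO, where 7.7% of these probe sets passed, and 0.0451 for CD9KO against wild type, where 6.78% did. No heat shock probe set passed there for CD151KO against wild type, where 0.627% did. Which transcript it detects was not analysed here.

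Hsph1, which recharges HSP70 with ATP, gave 1348, 3117, 2724, 2915 and 3282 in CD151KO lungs, 2870.2, 4052, 3047, 2839.9 and 2826 in CD9KO lungs, and 732, 2019.8, 3207 and 3637 in wild type lungs. Arrays 1 of wild type and CD151KO were the lowest of the 14, and CD9KO array 2 was the highest. The log2 difference of CD9KO from wild type was 0.60 (SE 0.37, 95% interval -0.19 to 1.38, adjusted p = 0.323), and without wild type array 1 it was 0.11. Its second probe set followed the first with r = 0.999 over the arrays, with group means subtracted.

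Hsp90aa1 was also lowest on arrays 1 of wild type and CD151KO, over a narrower range. It gave 7367, 9798, 9411, 9852 and 9826 in CD151KO lungs, 9247, 10657, 10533, 10561 and 10487 in CD9KO lungs, and 6103, 8390.1, 9849 and 10276 in wild type lungs. Its CD9KO against wild type difference was 0.28 log2 (SE 0.13, adjusted p = 0.18), and 0.12 without wild type array 1. Of its other 4 probe sets, 2 stayed under the level filter at signals of 14.8 to 38.0. The 2 above it gave CD9KO against wild type differences of 0.29 log2 (SE 0.17) and 0.0025 log2 (SE 0.16), so the probe sets of this gene did not give 1 value.

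Among the J-domain genes, Dnajb1, the main partner of the inducible HSP70s, came nearest to the threshold. It gave 1728, 3195, 2242, 1926 and 1954 in CD151KO lungs, 1848, 1652, 1245, 1139.7 and 1237 in CD9KO lungs, and 1496, 2215, 3025 and 2602 in wild type lungs. CD9KO arrays 3, 4 and 5 were the 3 lowest of all 14, CD9KO array 1 lay among the other genotypes, and wild type array 1 lay among the CD9KO values. The mean was 2209 ± 581 in CD151KO lungs, 1424 ± 308 in CD9KO lungs and 2334 ± 649.6 in wild type lungs (SD, n = 5, 5 and 4).

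The Dnajb1 difference for CD9KO against wild type was -0.69 log2 (SE 0.21, adjusted p = 0.0597), a 1.61-fold lower value on the signal + 16 scale. It was 0.62 for CD151KO against CD9KO (SE 0.19, adjusted p = 0.0555) and -0.07 for CD151KO against wild type (SE 0.21, adjusted p = 0.939). Without arrays 1 of CD151KO and wild type the first 2 passed, at -0.88 (adjusted p = 0.0267) and 0.70 (adjusted p = 0.021). Those arrays were set apart because most heat shock genes were low on them. Each was the lowest of its genotype for Dnajb1, so leaving them out had to enlarge both differences, and these p-values are no separate evidence. Over the 26 other ways of processing tried, each of these 2 differences passed in 6, and their adjusted p-values ran from 0.0091 to 0.126 and from 0.021 to 0.125. The second Dnajb1 probe set followed the first with r = 0.983, with group means subtracted, but its differences were smaller. It gave 1413 ± 313 in CD151KO lungs, 1053 ± 175 in CD9KO lungs and 1469 ± 423 in wild type lungs (SD, n = 5, 5 and 4). In the limma fit of all 34945 probe sets, its 2 differences were -0.44 (SE 0.18, adjusted p = 0.189) and 0.41 (SE 0.17, adjusted p = 0.208). The first probe set had adjusted p-values of 0.0659 and 0.0758 in that fit.

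Within arrays, the ratio of the Dnajb1 to the Hspa8 signal was 0.139 to 0.253 in CD151KO lungs, 0.0824 to 0.14 in CD9KO lungs and 0.176 to 0.227 in wild type lungs. The CD9KO lungs lay wholly below the wild type lungs, and overlapped the CD151KO lungs by 1 array of each. Of the 45 pairs of heat shock genes, the within-array ratios of CD9KO and wild type lungs did not overlap for 8, against 12% of all pairs of the 12985 genes. In 7 of those Dnajb1 was one of the pair, and the other was Hspa1a with Hspa1b. Between CD151KO and CD9KO lungs 4 of 45 ratios did not overlap, against 10.9% of all pairs, 3 with Dnajb1 and again Hspa1a with Hspa1b. Between CD151KO and wild type lungs none did, against 4.91% of all pairs. The 9 ratios that share a gene are not independent of each other, and no test was made on them.

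**Figure D3:**
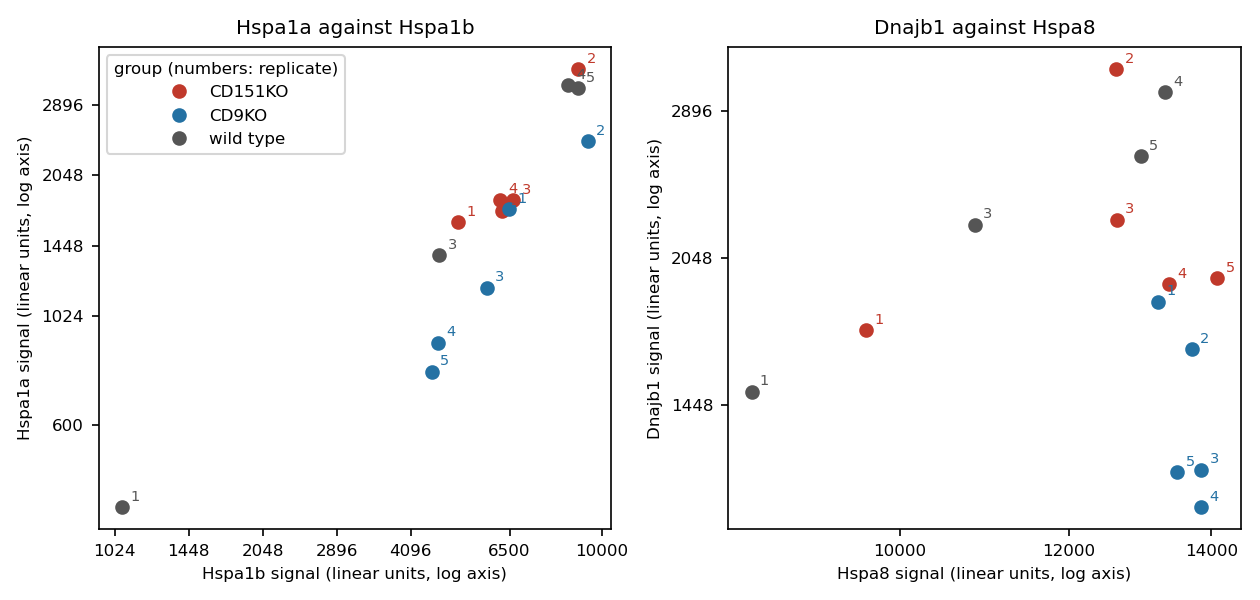
Signals of Hspa1a against Hspa1b (left) and of Dnajb1 against Hspa8 (right) on each array, linear units on log axes, coloured by CD151KO, CD9KO and wild type and numbered by replicate. In both panels the ratio of the vertical to the horizontal signal is lower on each CD9KO array than on any wild type array, with Hspa1a to Hspa1b ratios of 0.173 to 0.267 in CD9KO lungs and 0.296 to 0.378 in wild type lungs.

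Dnaja1, the other J-domain gene, gave 4306, 6945, 6719, 6727 and 7071 in CD151KO lungs, 6689.6, 7218, 5824, 5201 and 5357 in CD9KO lungs, and 3593, 5938, 7786 and 8112 in wild type lungs. Arrays 1 of wild type and CD151KO were the lowest, CD9KO arrays 3, 4 and 5 were lower than CD9KO arrays 1 and 2, and the groups overlapped. Between CD9KO and wild type lungs the log2 difference was -0.01 (SE 0.21, 95% interval -0.45 to 0.43, adjusted p = 0.976), and it was -0.26 without wild type array 1.

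Of the small heat shock genes, Hspb1 gave 4971, 7859, 7242, 7577 and 8586 in CD151KO lungs, 7373, 11298, 8961, 8964 and 11097 in CD9KO lungs, and 4195, 6373, 8425 and 9381 in wild type lungs. CD9KO arrays 2 and 5 were the highest, and wild type array 5 lay above the other 3 CD9KO arrays. Between CD9KO and wild type lungs it differed by 0.47 log2 (SE 0.21, adjusted p = 0.169), and 0.24 without wild type array 1. Between CD151KO and CD9KO lungs it differed by -0.40 log2 (SE 0.20, adjusted p = 0.198).

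Cryab had the narrowest range of the 10, with a highest array 1.29 times the lowest. It gave 3788, 4193, 3640.4, 4111 and 3977 in CD151KO lungs, 4149, 4159.9, 4680.3, 4219 and 4187 in CD9KO lungs, and 3979.9, 4529, 4259 and 4390.1 in wild type lungs. CD151KO arrays 1 and 3 were the lowest, and wild type array 1, the lowest of its group, lay within the CD151KO range. The log2 difference was -0.12 for CD151KO against wild type (SE 0.05, adjusted p = 0.355) and -0.12 for CD151KO against CD9KO (SE 0.05, adjusted p = 0.118). CD9KO and wild type lungs differed by -0.0034 (SE 0.05, 95% interval -0.11 to 0.10).

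Hspe1, the mitochondrial member, gave 1925, 2736, 2619, 2741 and 3001 in CD151KO lungs, 2749, 3453, 3080.4, 3129.6 and 3354 in CD9KO lungs, and 2052, 2336, 2786 and 3025 in wild type lungs. On this brightest probe set, 4 of the 5 CD9KO arrays lay above all arrays of the other genotypes. On the second Hspe1 probe set only CD9KO array 2 did, at 1101, and wild type array 5 read 1015. Against wild type, CD9KO lungs differed by 0.32 log2 (SE 0.12, adjusted p = 0.124), and by 0.22 without wild type array 1. For CD151KO against CD9KO the difference was -0.29 (SE 0.12, adjusted p = 0.126). In the limma fit of all 34945 probe sets, the second probe set gave 0.21 (SE 0.11, adjusted p = 0.317) and -0.13 (SE 0.11, adjusted p = 0.566). Hspd1, its chaperonin partner outside the 10 genes, had a CD9KO against wild type difference of 0.28 (SE 0.13, adjusted p = 0.194).

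Taken by comparison, 0 of the 10 heat shock genes passed limma for CD151KO against wild type, where 0.778% of all genes passed (101 of 12985). At an unadjusted p under 0.05 the count was 1 of 10, against 11.1% of all genes. Their median log2 difference was 0.09, against 0.0079 over all genes, and 8 of the 10 were above 0. Without wild type array 1 the median was -0.16, and without arrays 1 of CD151KO and wild type it was -0.03, against 0.0125 and 0.0134 over all genes. Of those 8, the differences of Hspa1a, Hspa1b, Dnaja1 and Hspb1 turned below 0 when arrays 1 of CD151KO and wild type were left out.

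In CD9KO against wild type lungs 0 of 10 passed, where 5.51% of all genes did (715 of 12985). At an unadjusted p under 0.05 the count was 5 of 10 (Hspa8, Hsp90aa1, Dnajb1, Hspb1 and Hspe1), against 25.4% of all genes, with Dnajb1 lower and the other 4 higher in CD9KO lungs. The median was 0.28, against 0.0037 over all genes, and without wild type array 1 it was 0.04, against 0.0080 over all genes. In CD151KO against CD9KO lungs 0 of 10 passed, where 10.1% of all genes did (1313 of 12985), 3 of 10 had an unadjusted p under 0.05 (Dnajb1, Cryab and Hspe1), against 27.6% of all genes, and the median was -0.13, against 0.0016. Without arrays 1 of CD151KO and wild type that median was -0.05, against 0.0021. No heat shock gene had groups that did not overlap in any of the 3 comparisons, against 4.54% of all genes for CD151KO against wild type, 11.8% for CD9KO against wild type and 10.6% for CD151KO against CD9KO. The comparisons share their groups of arrays, so their values are not independent of each other.

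**Figure D4:**
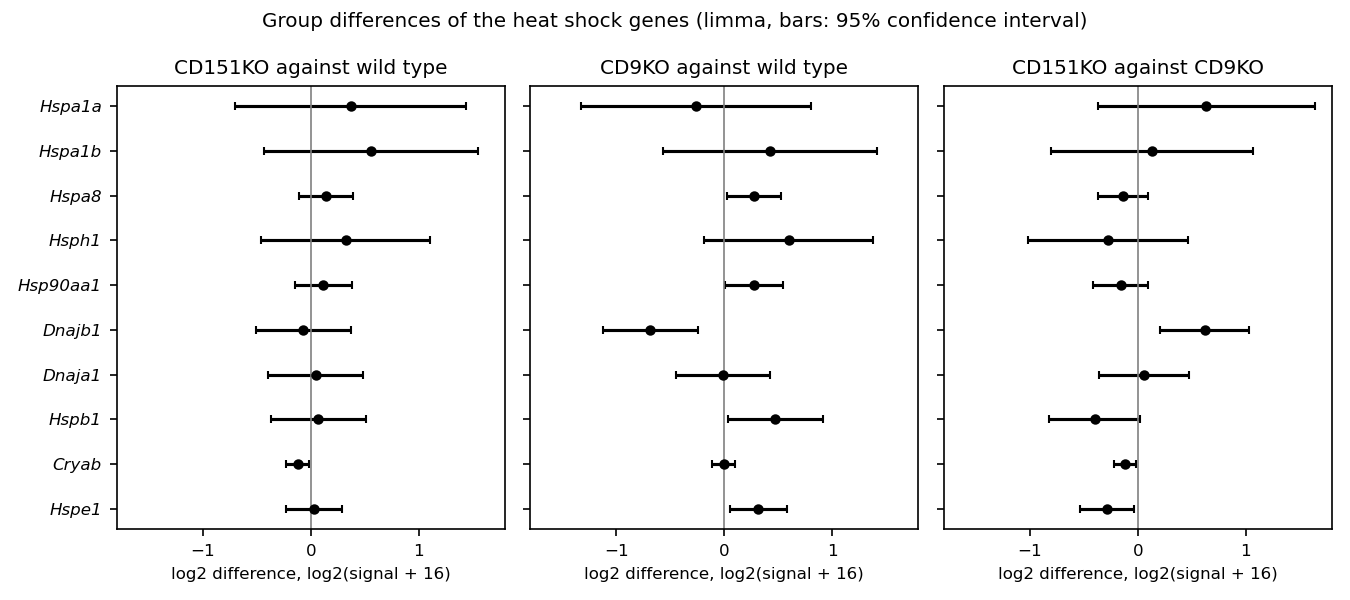
Log2 difference of each heat shock gene for CD151KO against wild type, CD9KO against wild type and CD151KO against CD9KO (points) with its 95% interval from the limma fit (bars). The intervals of Hspa1a and Hspa1b are the widest, and no difference passed an adjusted p of 0.05.

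The heat shock genes other than Cryab went up and down together from array to array. With the group means subtracted, the 36 pairs without Cryab had correlations of 0.452 to 0.969 over the 14 arrays, with a median of 0.855. Without arrays 1 of CD151KO and wild type they ran from 0.0315 to 0.962 over 12 arrays, with a median of 0.698, and the pairs at 0.8 or more came to 13, against 24 with all arrays. Hspa1a with Hspa1b (0.968, then 0.96) and Hspb1 with Hspe1 (0.96, then 0.962) kept values close to these without the 2 arrays. Dnajb1 with Hspa8 was 0.566, and 0.124 without them. The 9 pairs with Cryab reached 0.249 to 0.505, and -0.0743 to 0.19 without the 2 arrays. All genes of an array share 1 RNA sample and 1 hybridisation, so these correlations are descriptions.

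**Figure D5:**
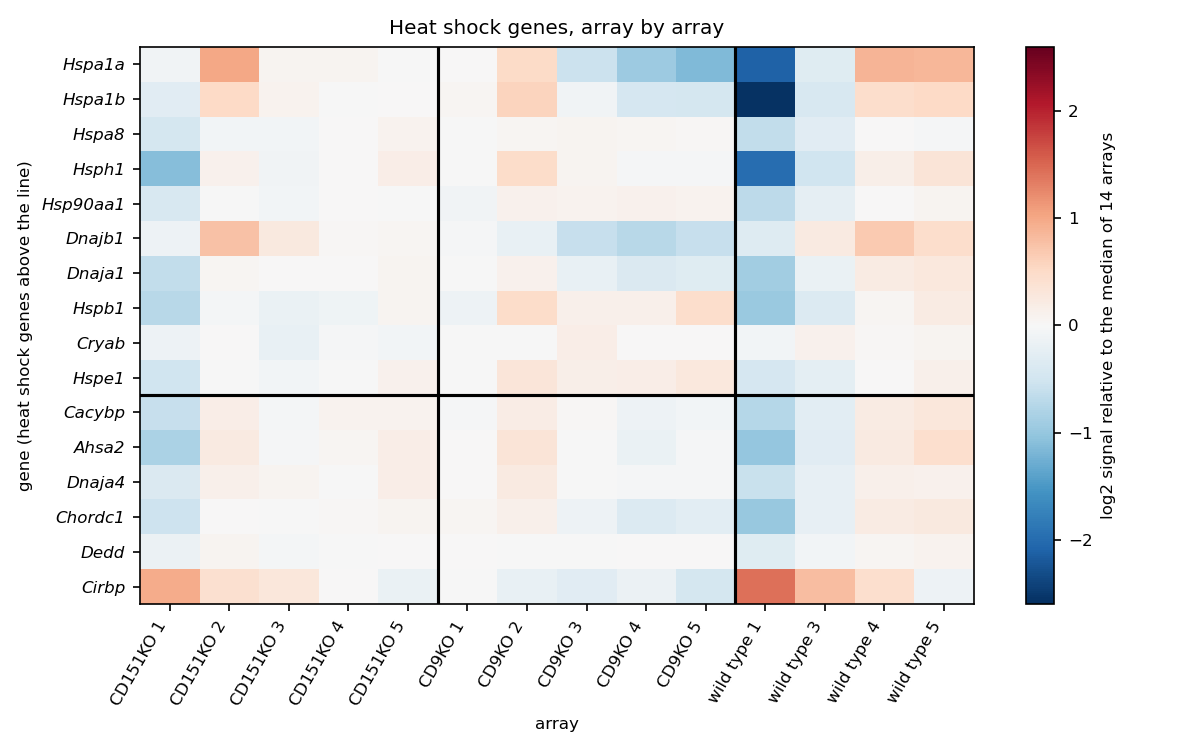
Log2 signal of each gene on each array minus that gene's median over the 14 arrays (colour, log2 units), with arrays ordered by CD151KO, CD9KO and wild type. Above the line are the 10 heat shock genes, where wild type array 1 is low for most, CD151KO array 1 is low to a smaller degree and Cryab is nearly flat, and under it are the 5 genes most correlated with them and Cirbp, which is high on both arrays 1.

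The mean log2(signal + 16) of the 10 genes was 11.75 on CD151KO array 1 and 11.14 on wild type array 1, against 11.97 to 12.48 on the other 12 arrays. Wild type array 1 was the lowest array for 7 of the 10 genes, these 2 arrays were the 2 lowest for 6, and CD9KO array 2 was the highest for 5. Several other gene lists also set these 2 arrays outside the range of the rest. Lower there were the HSP90 co-chaperones (9.26 on CD151KO array 1, 9.19 on wild type array 1, 9.498 to 9.786 on the others) and the glucocorticoid response genes (10.48, 10.64 and 10.66 to 11.54). Higher there were the immediate early genes (10.22, 10.25 and 9.66 to 9.96) and the B and plasma cell markers (9.66, 9.37 and 8.30 to 8.93). The ratio of 3' to 5' Gapdh control probe sets, a measure of RNA integrity, was 0.869 ± 0.013 in CD151KO lungs, 0.856 ± 0.022 in CD9KO lungs and 0.851 ± 0.012 in wild type lungs (SD, n = 5, 5 and 4). It was 0.8855 on CD151KO array 1 and 0.8356 on wild type array 1, against 0.8314 to 0.884 on the other 12 arrays. The same ratio for Actb was 1.456 and 1.431 on these arrays, against 1.373 to 1.458 on the others. The part of any of these in the heat shock values was not tested. In RNA of whole lung, fewer cells of a type and less RNA per cell cannot be told apart.

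Cirbp, the gene of an RNA-binding protein induced by mild cold, was highest on the 2 arrays where the heat shock mean was lowest. It gave 747, 512, 468, 384 and 337 in CD151KO lungs, 379.7, 332, 313, 343 and 276 in CD9KO lungs, and 1033, 668, 516 and 350.0 in wild type lungs. Within wild type and within CD151KO lungs the values fell with each higher array number. CD9KO array 5 had the lowest value, although its mean heat shock value, 12.02, was also toward the low end. The highest values were those of array 1 in wild type and in CD151KO. Its correlation with the mean of the standardised heat shock values, with group means subtracted, was -0.838 over 14 arrays and -0.569 without these 2. The log2 difference of CD9KO from wild type was -0.83 (adjusted p = 0.0597).

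The 5 genes outside the 10 whose pattern was most like that mean were Cacybp (r = 0.981), Ahsa2 (0.98), Dnaja4 (0.967), Chordc1 (0.958) and Dedd (0.957), over the 14 arrays with group means subtracted. Without arrays 1 of CD151KO and wild type the values were 0.968, 0.96, 0.912, 0.857 and 0.853. Ahsa2 encodes a homologue of the activator of the HSP90 ATPase, Dnaja4 a J-domain protein and Chordc1 an HSP90-binding protein. Cacybp gave 1091, 1846, 1587, 1751 and 1766 in CD151KO lungs, 1623, 1879, 1674, 1494 and 1563 in CD9KO lungs, and 980.3, 1369, 1912 and 2021 in wild type lungs. The 5 genes at the other end were Coro7 (-0.956), Mms19 (-0.95), Txndc5 (-0.949), Akip1 (-0.949) and Hddc2 (-0.945). These genes were picked from all those tested for their correlation.

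Outside the 10 genes, the other members of the chaperone system were described in lists. For CD151KO against wild type, 1 gene passed in the chaperone and stress lists other than the cell type lists, the deubiquitinase gene Usp2, at -0.45 (SE 0.07, adjusted p = 0.0106). It was also lower in CD151KO than in CD9KO lungs, at -0.61 (SE 0.07, adjusted p = 0.000294), as was the metallothionein gene Mt2, at -0.69 (SE 0.21, adjusted p = 0.0498), the 2 of 17 tested heat-inducible genes that passed, where 10.1% of all genes did. Without arrays 1 of CD151KO and wild type Usp2 stood at -0.34 (adjusted p = 0.0297) and -0.56 (adjusted p = 0.000101), and Mt2 at -0.61 no longer passed (adjusted p = 0.103). Usp2 is under clock control, and of 14 tested circadian clock genes 2 were higher and 6 lower in CD151KO than in wild type lungs, where 0.778% of all genes passed, while 1 was higher and 10 lower in CD151KO than in CD9KO lungs, where 10.1% of all genes passed. Of 14 glucocorticoid response genes tested, among them Mt2, 3 were lower in CD151KO than in CD9KO lungs, against the same 10.1%. The part of either list in these values was not tested.

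Of the 10 other HSP70 family genes tested, 3 rose in CD9KO against wild type lungs and none fell, where 5.51% of all genes passed, with a median of 0.25. They were Hspa12b, a divergent HSP70 of endothelial cells, at 0.72 (SE 0.19, adjusted p = 0.0392), Hspa5, the HSP70 of the endoplasmic reticulum, at 0.35 (SE 0.09, adjusted p = 0.0425), and Hyou1, an HSP110 of the same compartment, at 0.25 (SE 0.05, adjusted p = 0.0149). Hspa12b gave 302, 373, 397, 566 and 566 in CD151KO lungs, 589.5, 602, 596, 604 and 596 in CD9KO lungs, and 252, 306, 406 and 509 in wild type lungs. All CD9KO values lay above all others, and within CD151KO and wild type lungs the values rose from the lowest to the highest array numbers. Without wild type array 1 the list's median was 0.19 and 1 gene rose, Hyou1 at 0.24 (adjusted p = 0.0374), where 2.06% of all genes passed, while Hspa12b stood at 0.56 (adjusted p = 0.11) and Hspa5 at 0.24 (adjusted p = 0.0914). The mean log2 value of the list was 9.485 on CD151KO array 1 and 9.331 on wild type array 1, against 9.515 to 9.857 on the other 12 arrays. Of 10 endothelial markers tested in the same comparison none rose and 1 fell (1 rose and none fell without wild type array 1), and their summed signal was 22465 to 25560 in CD151KO lungs, 22382 to 24060 in CD9KO lungs and 23046 to 26288 in wild type lungs, whose part in this was not tested.

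Of the 6 other small heat shock genes tested, Hspb7 and Hspb6, both most abundant in muscle, rose in CD9KO against wild type lungs, at 0.53 (SE 0.11, adjusted p = 0.0175) and 0.29 (SE 0.07, adjusted p = 0.0349), where 5.51% of all genes passed. Without wild type array 1 both still passed, at 0.51 (adjusted p = 0.0483) and 0.32 (adjusted p = 0.0495). Hspb7 gave 124, 157, 205, 159.9 and 201 in CD151KO lungs, 232, 247, 251, 235 and 235 in CD9KO lungs, and 152, 177, 174 and 142 in wild type lungs. In the same comparison 1 of 12 cardiac muscle markers tested rose (Myh6, at 0.72, adjusted p = 0.0275), with a median of 0.42, and 5 of 10 smooth muscle markers rose. Without wild type array 1 these counts were 0 of 12, with a median of 0.37, and 2 of 10. The summed cardiac marker signal was 7269 to 12656 in CD151KO lungs, 9938 to 14136 in CD9KO lungs and 7945 to 9498 in wild type lungs, and its part in these results was not tested. For CD151KO against CD9KO, 1 of the 6 genes was lower and 1 higher, where 10.1% of all genes passed. Hspb7 was lower in CD151KO lungs, at -0.48 (SE 0.10, adjusted p = 0.0101), and Hspb11 was higher, at 0.19 (SE 0.04, adjusted p = 0.00838). Whether Hspb11 acts as a chaperone was not examined here.

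No gene passed limma in any of the 3 comparisons among 9 tested chaperonin genes, both other HSP90 genes tested (Hsp90b1 and Trap1) and the 1 tested regulator of heat shock factors, Hsbp1, and for CD9KO against wild type 2, 1 and 1 of them had an unadjusted p under 0.05, against 25.4% of all genes. For CD9KO against wild type, none of 37 other J-domain genes, 13 HSP90 co-chaperones, 12 exchange factors and other HSP70 partners, or 6 prefoldin genes passed limma, while 12, 3, 4 and 2 of them had an unadjusted p under 0.05, against the same 25.4% of all genes. For CD151KO against CD9KO, 1 gene passed in each of these 4 lists, where 10.1% of all genes passed. Dnaja2 (-0.13, adjusted p = 0.0192), Bag1 (-0.15, adjusted p = 0.0187) and Unc45b (-0.20, adjusted p = 0.0292) were lower and Pfdn5 (0.12, adjusted p = 0.0203) was higher in CD151KO lungs. Hsf1 was not analysed here, and Hsf2 lay under the level filter, which was set on the mean log2 value.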

How the data were processed

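RNA of 14 whole lungs was hybridised to 1-colour Affymetrix arrays, 1 sample each, with 500 ng of total RNA labelled per the labels' protocols. The authors deposited normalized linear signal intensities, 1 per probe set. Affymetrix Expression Console and MAS5 are named, without versions, per the submitters' processing notes, while the sources used here do not give how probes were summarised. Probe sets were named through the platform's annotation table: of 45101, 34945 carried 1 symbol, 932 several and 9160 none, and 64 were controls. Each gene took its probe set with the highest mean. Genes below the 40th percentile of mean log2 value were left out (5208 of 18193), and 12985 were tested.

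The intensities were analysed as log2(intensity + 16) with limma 3.58.1 (R 4.3.3; lmFit, eBayes with trend), in 1 fit of the 3 genotypes with 11 residual degrees of freedom and Benjamini-Hochberg adjustment at 0.05. Fold changes on this scale understate those of dim genes. The number of arrays limits the precision. Data were simulated with 200 of 12985 genes, drawn at random, changed for CD151KO against wild type, and with noise independent between genes. Of changes of 0.2, 0.4 and 0.8 log2, 33.3%, 84.1% and 97.5% were recovered, with 5.08% false calls. These shares describe genes drawn from all those tested, with a median residual SD of 0.0882, and not the more variable heat shock genes. Python 3.11.15 with matplotlib 3.10.9 made the figures. The genes named are the 10 heat shock genes, genes of the chaperone lists that passed (up to 4 per list and comparison by p), and the 5 genes at each end of correlation with the heat shock mean. The 10 genes and the gene lists were chosen with earlier results of these data known. Alternatives tried were other pseudocounts, scalings, filters, probe set rules, fits and arrays left out. The gene lists without arrays 1, and the ratios over all gene pairs, were added after seeing the data. Arrays 1 of CD151KO and wild type were set apart because of their values in these same data.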

Additional observations from a re-analysis of the deposited data

Results flagged for a closer look

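In 8 of the 30 sets made by 10 heat shock genes and 3 genotypes, 1 array stood so far from the others of its genotype that Dixon's test at 95% marked it, where chance marks about 1 in 20. The sets are not independent, since the genes share their arrays. On CD151KO array 1, 4 genes were low: Hspa8 at 9646 (12632 to 14090.4 on the other CD151KO arrays), Hsph1 at 1348 (2724 to 3282), Hsp90aa1 at 7367 (9411 to 9852) and Dnaja1 at 4306 (6719 to 7071). On CD151KO array 2 Hspa1a was high, at 3454 (1629 to 1816 on the others). In CD9KO lungs Hsph1 was high on array 2, at 4052 (2826 to 3047), Hsp90aa1 was low on array 1, at 9247 (10487 to 10657), and Cryab was high on array 3, at 4680.3 (4149 to 4219). No wild type array was marked for any of the 10 genes.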

How the results depend on the processing

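With 4 or 5 arrays to a group and the wide spread of these genes, 0 of 10 heat shock genes passed in each comparison, and this count depended on the processing. In CD9KO against wild type it became 1 with every probe set above the level filter tested (Hspa8 probe set 1431182_at, -1.05, adjusted p = 0.0451, against 0.0536 with no level filter), 1 with array weights, 1 without arrays 1 of CD151KO and wild type (both Dnajb1) and 5 with the replicate number as a block. For CD151KO against CD9KO it became 1 with every probe set above the filter tested (the same Hspa8 probe set, 1.01), 1 with only the groups compared fitted, 1 with array weights, 1 without arrays 1 of CD151KO and wild type (each Dnajb1) and 3 with the replicate block. Leaving out 1 array at a time gave 0 to 1 in both and 0 in CD151KO against wild type: Dnajb1 passed for CD9KO against wild type without wild type 1 (-0.88), CD151KO 2 (-0.69) or CD9KO 1 (-0.79), and for CD151KO against CD9KO without wild type 1 (0.62) or CD9KO 1 (0.72). The replicate block made Hspa8, Hsp90aa1, Dnajb1, Hspb1 and Hspe1 pass for CD9KO against wild type and Dnajb1, Hspb1 and Hspe1 for CD151KO against CD9KO. Between CD151KO and wild type, the deviations of same-numbered arrays correlated at 0.592, -0.13, 0.451 and 0.263 for numbers 1, 3, 4 and 5. In the comparisons with CD9KO they correlated at -0.0984 to 0.211. As not all were over 0.1, the numbers were not taken to pair the samples. What the numbers stand for is not given in the labels, and their part in these values was not tested. Exact two-sided permutation tests of the single genes gave no p under 0.0159, and bear on no call over all genes.

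The count of all genes that passed for CD151KO against wild type was 101, and 39 with only the groups compared, 335 with array weights, 45 without arrays 1 of CD151KO and wild type, and 24 to 98 leaving out 1 array at a time. In CD9KO against wild type it was 715, and 1090 with array weights, 1591 with the replicate block, 405 without those arrays 1, and 158 to 866 leaving out 1 array. With every probe set above the filter tested, 1555 of 22951 passed (6.78%), a count of probe sets and not of genes. In CD151KO against CD9KO the count of genes was 1313, and 682 to 1939 leaving out 1 array.

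Of the gene differences 42 changed sign, none of which passed in any setting where it turned. Cryab turned to 0.00263 for CD9KO against wild type with arrays centred on their median. With the mean of all probe sets Hspa8 turned to -0.0162, Dnaja1 to 0.106 and Cryab to 0.00942 for CD9KO against wild type, and Hspa8 to 0.121 for CD151KO against CD9KO. With array weights the CD151KO against wild type values turned to -0.264 for Hspa1a, -0.0569 for Hspa1b, -0.00575 for Hsph1, -0.122 for Dnaja1, -0.0811 for Hspb1 and -0.0119 for Hspe1, and Hspa1b to -0.192 for CD9KO against wild type. With the replicate block Dnaja1 turned to -0.00669 for CD151KO against wild type. Without arrays 1 of CD151KO and wild type the CD151KO against wild type values turned to -0.192 for Hspa1a, -0.0335 for Hspa1b, -0.0711 for Dnaja1 and -0.0285 for Hspb1, and Hspa1b to -0.254 for CD9KO against wild type. Leaving out 1 array at a time, the CD151KO against wild type difference ranged over -0.265 to 0.717 for Hspa1a, -0.122 to 0.898 for Hspa1b, -0.163 to 0.599 for Hsph1, -0.0422 to 0.208 for Hsp90aa1, -0.264 to 0.0718 for Dnajb1, -0.205 to 0.185 for Dnaja1, -0.158 to 0.228 for Hspb1 and -0.0674 to 0.135 for Hspe1. The CD9KO against wild type difference ranged over -0.897 to 0.0841 for Hspa1a, -0.254 to 0.765 for Hspa1b, -0.263 to 0.128 for Dnaja1 and -0.0388 to 0.0231 for Cryab. The cause of these turns was not tested.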

Other observations

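The chaperones of the endoplasmic reticulum fold secreted and membrane proteins and are induced by the unfolded protein response. Their list of 20 tested genes shares Hspa5 and Hyou1 with the other HSP70 family list and Hsp90b1 with the other HSP90 genes. The rises of Hspa5 and Hyou1 in CD9KO lungs are thus counted in both lists. For CD9KO against wild type 6 rose and 1 fell, where 5.51% of all genes passed, 17 had an unadjusted p under 0.05, against 25.4% of all genes, and the median difference was 0.22 log2, against 0.0037 over all genes. Without wild type array 1, a setting chosen after seeing the data, 2 rose (Hyou1 and Pdia4) and none fell, where 2.06% of all genes passed, 15 had an unadjusted p under 0.05, and the median was 0.15. Besides Hyou1, the protein disulphide isomerase gene Pdia4 rose, at 0.25 (SE 0.05, adjusted p = 0.0149), as did Calr, the gene of the calcium-binding lectin chaperone calreticulin, at 0.27 (SE 0.07, adjusted p = 0.033). Atf4, a transcription factor of the stress response, fell by 0.16 (SE 0.04, adjusted p = 0.0338). For CD151KO against wild type and for CD151KO against CD9KO none of the 20 passed limma, with 7 and 8 at an unadjusted p under 0.05, against 11.1% and 27.6% of all genes. This list was also low on arrays 1 of CD151KO and wild type, with a mean log2 value of 10.82 and 10.70, against 10.89 to 11.15 on the other 12 arrays.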
